A study of Mus musculus with 16 samples.

Results

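Cytosolic ribosomal protein genes were examined in 16 expression arrays of group 2 innate lymphoid cells (ILC2s), lymphocytes without antigen receptors that release type 2 cytokines when they sense the epithelial alarm cytokine IL-33. The genes were chosen by symbol, Rpl or Rps followed by a number and at most 1 further letter, together with Rplp0, Rplp1, Rplp2 and Rpsa, and each was read from the brightest probe set that carried that symbol alone. The rule found 64 of the 22180 genes measured, 40 of the large and 24 of the small subunit. Of the 80 proteins of the mammalian cytosolic ribosome, 57 are among the 64, and 7 of the 64 genes lie outside that catalogue: Rpl10l, Rpl32l, Rpl39l, Rpl3l, Rpl6l, Rps27l and Rps4l. RefSeq lists Rpl6l and Rps4l as pseudogenes.

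The ILC2s came from lungs of untreated mice (2 arrays, called naive) and from lungs of mice given IL-33 through the nose and sampled at day 4 (3 arrays), week 2 (3 arrays) or 4 months (2 arrays) after the first dose. The mediastinal lymph node (mLN), the lung's draining node, gave further ILC2s, sampled at day 4 (3 arrays) and week 2 (3 arrays) of the same treatment. Sort markers and pooling of mice were not stated in what was used here. The labels give C57BL/6J mice and the cell type for the lung samples, no allele or transgene, and for the mLN samples tissue and time alone. There were no mLN samples of untreated mice. The titles number the arrays of a group as biological replicates.

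The ribosome is built from ribosomal RNA and a large set of proteins, most of them present as a single copy, and cells that leave rest make more of it. Most ribosomal protein mRNAs begin with a cytosine followed by a run of pyrimidines (the 5′ terminal oligopyrimidine, or TOP, motif), through which mTOR and the RNA-binding protein Larp1 control their translation. Many snoRNAs, which guide modification of ribosomal RNA, lie in introns of these genes, and the genome holds many processed copies of them, so that short probes often match more than 1 locus. For that reason a level is a probe set signal on the log2 scale, and signals of different genes do not rank their transcripts.

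The starts of these genes are shown because the pyrimidine run is the sequence feature that sets the family apart in textbooks, and because it can be set beside the genes that rose and those that did not. RefSeq promoter windows (GRCm38.p6) were matched for 49 of the 64 genes. The lines below give 40 bases before and 20 bases from the annotated start, on the transcript's strand, with runs of 8 or more C or T in capitals. Rps27 (chr3:90213629-90213688, minus strand), Rpl15 (chr14:18270967-18271026, minus strand), Rps26 (chr10:128626487-128626546, minus strand), Rpl7a (chr2:26910767-26910826, plus strand), Rpl9 (chr5:65391412-65391471, minus strand) and Rplp0 (chr5:115559427-115559486, plus strand) were higher at day 4 than in naive lung, while Rps18 (chr17:33955646-33955705, minus strand) and Rps6 (chr4:86857348-86857407, minus strand) were among the steadiest genes of the family.
Rps27: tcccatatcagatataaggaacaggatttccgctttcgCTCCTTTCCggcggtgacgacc
Rpl15: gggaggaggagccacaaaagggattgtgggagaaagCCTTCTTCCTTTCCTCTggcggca
Rps26: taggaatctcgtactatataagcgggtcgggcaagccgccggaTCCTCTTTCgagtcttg
Rpl7a: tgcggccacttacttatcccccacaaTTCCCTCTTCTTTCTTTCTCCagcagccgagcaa
Rpl9: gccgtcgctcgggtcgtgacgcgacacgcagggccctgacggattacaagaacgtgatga
Rplp0: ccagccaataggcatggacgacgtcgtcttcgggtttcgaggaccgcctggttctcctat
Rps18: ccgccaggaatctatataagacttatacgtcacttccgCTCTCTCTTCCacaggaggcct
Rps6: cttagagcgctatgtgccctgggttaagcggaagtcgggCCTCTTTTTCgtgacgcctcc

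A run of at least 8 C or T within 20 bases of the annotated start was found in 25 of the 49 ribosomal protein genes (51.0%) and in 18.4% of 27025 genes with a window. The stricter form, a C at the annotated start followed by at least 4 C or T, was found in 11 of 49 (22.4%) against 3.01% of all genes. The letters CCGGAAG, the core of ETS family sites, were present on either strand of the 300-base window, from 250 bases before the start, in 22 of 49 (44.9%) against 9.93%. The letters AAGATGGC, the core of YY1 sites, were found in 2 of 49 against 3.19%, CACGTG, the E-box bound by Myc, in 4 of 49 (8.16%) against 8.09%, and TATAAA in 5 of 49 (10.2%) against 15.7%. Of the 14 genes called higher at day 4, 11 had a window, and 6 of these held the run of 8 or more. A match is a stretch of letters in this window and was not tested as a site. The annotated starts were not checked against the starts used in these cells. A window without a run therefore does not show that an mRNA lacks the TOP motif. The sequences shown above are a selection, with runs among both the genes that rose and the steady ones.

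Signals of the family fell into a bright and a dim set. A mean of 8 or more over the 16 arrays was found for 36 genes, all above the 95th percentile of the 22180 genes, and a mean under 8 for 28, of which 22 belong to the catalogue of the ribosome and 7 lay under the median gene (4.20). The highest signals were those of Rplp1 (12.68), a protein of the stalk that recruits translation factors, Rpl41 (12.15), the smallest ribosomal protein, and Rps18 (12.07), a protein of the small subunit's head. The lowest were those of Rpl32l (1.52), Rpl10l (1.60), the testis paralog of Rpl10, and Rpl3l (2.82), the striated muscle paralog of Rpl3. For 11 members a probe set that lists other symbols as well was brighter than the probe set used, for Rpl30 11.56 against 3.70 and for Rps16 11.76 against 4.10. Such a probe set was found for 9 of the 28 dim genes, and for Rpl39 it was dim as well (5.18).

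The SD over all 16 arrays had a median of 0.27 for the family and of 0.33 for all genes. It was smallest for Rpl38 (0.05), a large-subunit protein known for its part in translating Hox mRNAs, Rps6 (0.07), the target of S6 kinase, and Rps18 (0.08). Rpl38 ran from 11.50 to 11.70. It was largest for Rps27 (0.81), a zinc finger protein of the small subunit, Rpl3 (0.76), an early-binding protein near the peptidyl transferase centre, and Rps27l (0.72), the paralog of Rps27 and a known p53 target. The group with the lowest mean was 4-month lung for 36 of the 64 genes and naive lung for 15, and the highest was mLN at week 2 for 24, mLN at day 4 for 18 and lung at day 4 for 11.

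The mean of the 36 bright genes was 10.67 in both naive lung arrays, 11.05, 11.01 and 10.93 in lung at day 4, 10.80, 10.79 and 10.78 in lung at week 2, and 10.59 and 10.61 in lung at 4 months. In the mLN it was 11.03, 11.07 and 10.93 at day 4 and 11.09, 11.13 and 10.90 at week 2. Naive and 4-month lung were thus the lowest, lung at week 2 lay between, and replicate 3 was the lowest array of lung day 4, mLN day 4 and mLN week 2. These are arrays of bulk RNA, in which fewer cells of a type and less RNA per cell cannot be told apart.

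**Figure D1:**
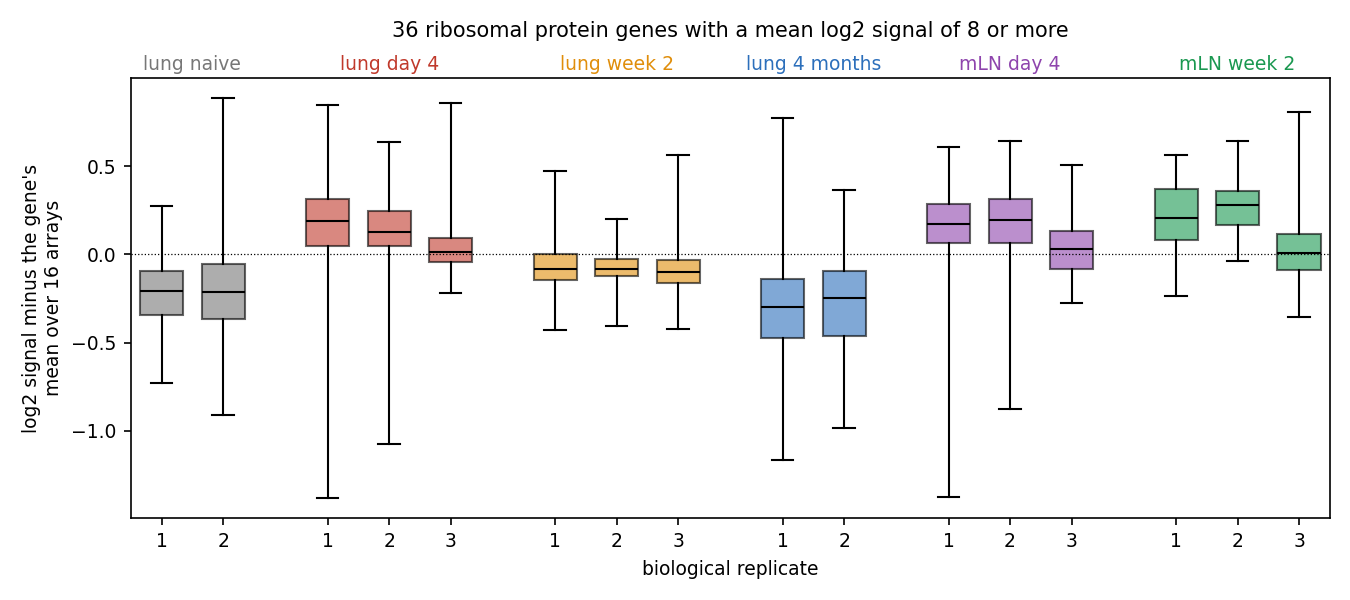
Log2 signal of the 36 bright ribosomal protein genes in each array, each gene minus its own mean over the 16 arrays (boxes, lower to upper quartile of the genes with their median; whiskers, lowest and highest gene), by group and biological replicate. The boxes of naive and 4-month lung lie below 0 and those of lung day 4 and both mLN groups mostly above it.

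Technical measures moved with these values. The interquartile range of all signals on an array was 2.05 to 2.47 in the naive and 4-month arrays and 2.85 to 3.07 in the other 12, and over the 16 arrays it correlated with the mean of the bright genes (Pearson r = 0.829, a description of arrays that share groups). The spread between replicates over all genes (root mean square SD) was 0.45 in naive and 0.42 in 4-month lung and 0.24 to 0.28 in the other groups, and limma's array weights were 0.44 for the naive and 4-month arrays and 0.68 to 1.81 for the rest. The ILC2 transcription factor Gata3 was at 8.82 to 9.69 on every array. Other ILC2 markers ranged more widely, Klrg1 from 7.68 to 9.74 and Il13 from 10.06 to 12.08. The mean of 13 ILC2 markers was 9.18 and 9.17 in naive lung and 9.42, 9.54 and 9.71 in lung at day 4. The mean of 14 macrophage markers was 6.44 and 6.43 in lung day 4 replicates 1 and 2 and 5.66 in lung week 2 replicate 3, against 4.27 to 5.08 in the other lung arrays and 3.90 to 4.19 in the mLN, and its r with the mean of the bright genes was -0.07. The mean of 11 T cell markers was 6.90 and 6.75 in naive lung and 5.24 to 5.65 elsewhere, with Cd3e at 8.99 and 9.37 in naive lung and at 5.30 to 6.81 elsewhere. The part of any of these in the differences below was not tested.

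Day 4 lung ILC2s were compared with naive ones to ask what activation changes. Of the 64 genes, 14 rose and 0 fell at day 4 (limma, adjusted p under 0.05 over all genes), and the median difference was 0.30, against -0.06 for all genes. Among all 22180 genes 10.8% were called higher and 5.73% lower. Of the macrophage markers 5 of 14 were called higher and of the T cell markers 7 of 11 lower in the same comparison. With the unequal spread of the arrays taken into account by array weights, 5 of the 64 were called, all higher: Rps27l, Rps27, Rpl9, Rpl5 and Rpl7. That is 7.81% of the family, beside 5.91% of all genes called higher with the same weights, where the common spread gave 21.9% and 10.8%. The difference was above 0 for 51 of 64 genes and for 45.2% of all genes, below 0 for 13 and for 54.8%, and for 39 every day 4 array was above both naive arrays (22.0% of all genes), and for 5 below both (22.5%). Of the large-subunit genes 8 of 40 were called, with a median of 0.32, and of the small-subunit genes 6 of 24, with a median of 0.30.

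Among large-subunit genes, Rplp0, which anchors the stalk that recruits translation factors, was at 8.16 and 8.30 in naive lung and at 9.53, 9.32 and 9.54 at day 4. All day 4 arrays lay above both naive arrays, by 1.23 ± 0.26 on the log2 scale (SE, limma, adjusted p = 0.0048). With array weights the adjusted p was 0.0549. Rpl9, another large-subunit protein, was at 6.54 and 6.70 in naive lung and at 7.95, 8.03 and 7.60 at day 4. The groups did not overlap, and the difference was 1.24 ± 0.27 (limma, adjusted p = 0.00514; 0.0335 with array weights). The mean over both probe sets of Rpl9 gave 0.55, with a limma adjusted p of 0.119.

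Among small-subunit genes, Rps27 was at 5.47 and 4.87 in naive lung and at 6.82, 6.77 and 6.84 at day 4. The day 4 arrays lay close to each other and all above both naive arrays, by 1.64 ± 0.34 (limma, adjusted p = 0.00388, and 0.00713 with array weights). A brighter probe set that lists Rps27 with other symbols (mean 12.13) differed by -0.06 (limma adjusted p = 0.833). The rise is thus that of 1 dim probe set. Rps27l was at 5.36 and 4.997 in naive lung and at 7.48, 7.05 and 6.49 at day 4. Its difference, 1.83 ± 0.29, was the largest of the family (limma, adjusted p = 0.000583; 0.00474 with array weights). Rps4l, the annotated pseudogene related to Rps4x, was at 4.76 and 4.57 in naive lung and at 5.81, 6.22 and 5.95 at day 4, a difference of 1.33 ± 0.39 (limma, adjusted p = 0.0304; 0.142 with array weights). Without any 1 of the 5 arrays of these groups Rps4l was not called (limma adjusted p from 0.053 to 0.117).

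The other 9 genes called higher at day 4 were Rpl5, which forms the 5S particle with Rpl11 and 5S ribosomal RNA, Rpl7, Rpl15, Rpl7a and Rpl10a of the large subunit, the annotated pseudogene Rpl6l, and Rps13, Rps26 and Rps4x of the small subunit. They differed by 0.57 (Rps4x) to 1.14 (Rpl5). Of the 59 catalogue genes measured on 1-symbol probe sets, 11 were called higher (18.6%, beside 10.8% of all genes). Rps26, which lines the channel through which mRNA leaves the small subunit, was at 10.26 and 10.39 in naive lung and at 11.19, 11.13 and 10.73 at day 4, and Rps13, at the interface of the subunits, was at 9.50 and 9.32 and then at 10.74, 10.51 and 10.10. No gene was called lower in this fit. The 2 lowest differences were those of Rpl3, at 8.64 and 9.63 in naive lung and at 7.36, 7.67 and 8.79 at day 4 (-1.19 ± 0.42, limma adjusted p = 0.0597), and Rps16 (-0.62 ± 0.31, adjusted p = 0.183). The Rpl3 arrays of the groups overlapped. Rpl3 was called lower in some other settings: with quantile normalization repeated (-1.56, limma adjusted p = 0.0293), with dim genes left out (adjusted p = 0.0489), with the replicate number as a block (-1.46, adjusted p = 0.00749), and without naive replicate 1 (0.032), lung day 4 replicate 3 (0.012) or mLN day 4 replicate 3 (0.0397). Without the 3 lung arrays highest in macrophage markers, which leaves 1 array at day 4, its difference was -0.34.

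The count of 14 rested on few arrays. It was 5 without day 4 replicate 1 (7.81% of the family, beside 7.37% of all genes called higher). It was 7 without day 4 replicate 2 (10.9%, beside 7.78%). Without naive replicate 2, 7 were higher and 2 lower (10.9% and 3.12%, beside 9.8% and 5.11% of all genes). Without the 3 lung arrays highest in macrophage markers, which leaves 1 array at day 4, the median difference was 0.22. There Rps27 differed by 1.67, Rplp0 by 1.31, Rps27l by 1.32 and Rpl9 by 0.98. With quantile normalization repeated on the gene table, 4 were called higher and 2 lower, with a median of 0.16. These are 6.25% and 3.12% of the family, beside 5.58% and 4.48% of all genes, so the excess of higher calls was not seen in that setting.

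**Figure D2:**
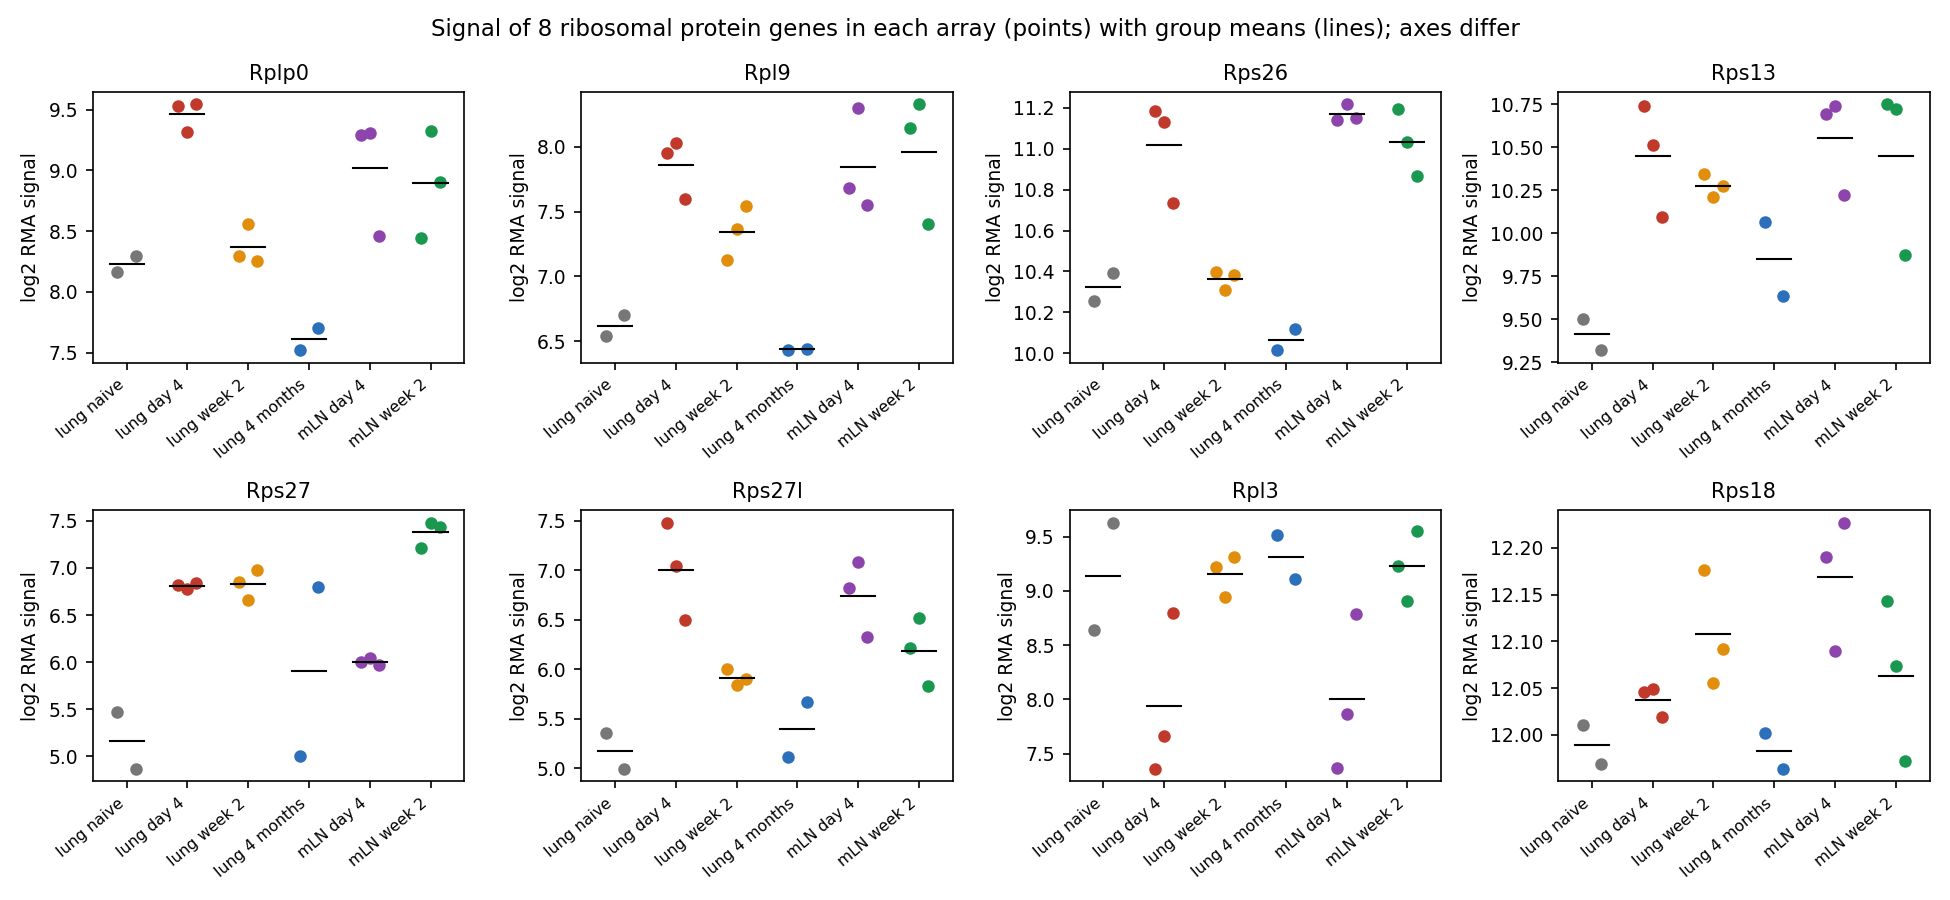
Log2 signal of 8 ribosomal protein genes in every array (points) with group means (lines); each panel has its own axis. Rplp0, Rpl9, Rps26, Rps13, Rps27 and Rps27l lie higher at day 4 than in naive lung, Rpl3 has an opposite order of means, and Rps18 spans under 0.3.

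In lung at week 2 the family lay closer to naive. Rps27 and Rpl5 were called higher (limma) and 0 genes lower, while 6.75% of all genes were called higher, 2.87% lower and 9.62% in either direction. The median difference was 0.10 against -0.04 for all genes, 41 of 64 were above 0 (46.1% of all genes) and 23 below (53.9%), and 26 did not overlap and were higher (21.8%) where 9 were lower (20.6%). Rps27 was at 6.85, 6.66 and 6.97, above both naive arrays by 1.66 ± 0.34 (limma, adjusted p = 0.00678, and 0.0119 with array weights). On the brighter probe set shared with other symbols Rps27 differed by -0.05 (limma adjusted p = 0.870). Rpl5 was at 4.96, 4.86 and 4.74 against 4.497 and 3.30 in naive lung, a difference of 0.95 ± 0.29 (limma, adjusted p = 0.0467; 0.106 with array weights). Without naive replicate 2, the low array, which leaves 1 naive array, its difference was 0.36 and that of Rps27 1.36. Rpl5 was not called without any 1 of the lung day 4, lung week 2 and mLN day 4 arrays or without mLN week 2 replicate 2. The count was 1 without lung day 4 replicate 1 or 2, any lung week 2 array or mLN day 4 replicate 1 or 2. That is 1.56% of the family, beside 3.64% to 6.05% of all genes called higher. The lowest differences were those of Rps16 (-0.74 ± 0.31, adjusted p = 0.14) and of Rps25, a small-subunit protein used in internal initiation (-0.51 ± 0.19, adjusted p = 0.0905), and neither passed the test. With quantile normalization repeated, Rps25 was called lower (-0.80, limma adjusted p = 0.0275) and Rpl5 was not called (adjusted p = 0.0526), so that 1 gene was higher and 1 lower.

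At 4 months 0 of the 64 genes differed from naive lung by limma, and 436 of all genes (1.97%) were called. At an unadjusted p under 0.05, 0 of the 64 were higher and 6 lower, against 7.12% and 9.89% of all genes, and the difference was below 0 for 45 of 64 (52.2% of all genes) and above 0 for 19 (47.8%). For 26 genes both 4-month arrays lay below both naive arrays (18.6% of all genes), and for 8 both lay above (3553 of 22180 genes). The median was -0.09, against -0.02 for all genes. The highest differences were those of Rps27, whose 4-month arrays stood apart at 5.01 and 6.80 (0.73 ± 0.37, limma adjusted p = 0.328), and Rps13 (0.44 ± 0.29, adjusted p = 0.479). The lowest were those of Rps16 (-1.07 ± 0.34, adjusted p = 0.106) and Rps7 of the small subunit (-0.99 ± 0.33, adjusted p = 0.132), whose naive arrays were at 5.21 and 6.40. Over the fits without 1 array the median difference ran from -0.17 to -0.07. Leaving out a naive or 4-month array leaves 1 array in that group. Rps16 was called lower without mLN week 2 replicate 2 (limma adjusted p = 0.0297). The 3 comparisons with naive lung share the same 2 control arrays.

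From day 4 to week 2 in the lung, 3 of the 64 genes fell and 0 rose (limma), against 1.39% of all genes called lower. The difference was below 0 for 56 of 64 genes and for 48.2% of all genes, with a median of -0.18 against 0.01, and for 27 every week 2 array lay below every day 4 array and for 3 above (11.9% of all genes each way). At an unadjusted p under 0.05, 14 were lower (6.63% of all genes) and 1 higher (5.09%). Rplp0 went from 9.53, 9.32 and 9.54 to 8.30, 8.56 and 8.26, and fell by 1.09 ± 0.24 (limma, adjusted p = 0.0229; 0.00445 with array weights). Rps27l went from 7.48, 7.05 and 6.49 to 6.00, 5.84 and 5.90, and fell by 1.09 ± 0.26 (limma, adjusted p = 0.04; 0.00242 with array weights). Rps26 went from 11.19, 11.13 and 10.73 to 10.40, 10.31 and 10.38, and fell by 0.65 ± 0.16 (limma, adjusted p = 0.0436; 0.00273 with array weights).

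For each of these genes the week 2 arrays lay close together and below all day 4 arrays. Rps27 was at 6.77 to 6.84 at day 4 and at 6.66 to 6.97 at week 2, a difference of 0.01 ± 0.30 (95% interval -0.63 to 0.66). The highest differences were those of Rpl3 (1.21 ± 0.37, limma adjusted p = 0.14; 0.00965 with array weights) and of Rpl4, a protein of the exit tunnel (0.16 ± 0.14, adjusted p = 0.727). With array weights 6 genes were lower (4.08% of all genes) and 1 higher (2.27%). Without any 1 of day 4 replicates 1 and 2 or of the 3 week 2 arrays, 0 were called, beside 0.663% to 0.834% of all genes called lower. Without mLN day 4 replicate 1 the count was 1 (1.56% of the family, beside 1.2% of all genes). It was also 1 without mLN week 2 replicate 1. Without the 3 arrays highest in macrophage markers, which leaves 1 array at day 4, Rplp0 fell by 1.11 and Rps27l by 0.57. Both day 4 arrays with the highest macrophage marker means were also the highest for Rps27l and Rps26.

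From week 2 to 4 months in the lung, 2 of the 64 genes fell and 0 rose (limma), against 11.5% of all genes called lower and 4.85% higher. At an unadjusted p under 0.05, 14 were lower (20.2% of all genes) and 1 higher (12.9%). The difference was below 0 for 52 of 64 (48.3% of all genes), with a median of -0.20 against 0.02 for all genes. Rpl9 went from 7.12, 7.37 and 7.54 to 6.43 and 6.44, and fell by 0.91 ± 0.27 (limma, adjusted p = 0.0305; 0.121 with array weights). Rps4x, the X-linked small-subunit protein, went from 10.36, 10.32 and 10.15 to 9.84 and 9.63, and fell by 0.54 ± 0.18 (limma, adjusted p = 0.0453; 0.148 with array weights). The groups did not overlap for either gene. Markers of other cells differed here too: the B cell marker mean was 4.02 to 4.03 in the week 2 arrays and 4.62 and 4.34 at 4 months, with 2 of 9 markers called higher and 8 of 9 above 0, and 2 of 13 ILC2 markers were called lower. Their part in the differences was not tested. The highest differences were those of Rpl3l (0.45 ± 0.17, adjusted p = 0.0811) and Rps25 (0.32 ± 0.19, adjusted p = 0.246).

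This comparison turned with the scaling. With array medians set equal, 9 genes were lower and 0 higher (14.1% of the family, beside 16.3% of all genes called lower), and the median of all genes moved from 0.02 to -0.10. With quantile normalization repeated, 2 were higher and 0 lower (2.72% of all genes higher). With array weights 0 were called (4.33% of all genes lower). Without week 2 replicate 2 or 3 the count was 0, beside 6.44% and 6.59% of all genes called lower. It was 1 (1.56% of the family) without week 2 replicate 1, any lung day 4 array or mLN day 4 replicate 1 or 2. In those settings 6.84% to 11.1% of all genes were called lower.

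In the mLN the signals at both times lay close together. From day 4 to week 2, 1 of the 64 genes rose and 0 fell (limma, against 0.528% of all genes called higher). The median difference was 0.01, with 32 genes on each side of 0 (49.4% of all genes above 0). At an unadjusted p under 0.05, 6 were higher (4.25% of all genes) and 1 lower (4.8%). The gene was Rps27, at 6.00, 6.04 and 5.97 at day 4 and at 7.22, 7.48 and 7.44 at week 2. The arrays of each group agreed closely and the groups did not overlap, with a difference of 1.37 ± 0.30 (limma, adjusted p = 0.0245, and 0.000678 with array weights). On the brighter probe set shared with other symbols the difference was 0.06 (limma adjusted p = 0.98). On the probe set used, leaving out any 1 of the 6 mLN arrays gave 1.32 to 1.45 and a limma adjusted p of 0.0554 to 0.113. Then 2 other genes were called without mLN day 4 replicate 3 and 0 without any of the other 5. Without mLN day 4 replicate 1 or 2, 0.248% and 0.225% of all genes were called higher. The lowest differences, Rps27l (-0.55 ± 0.26, adjusted p = 0.55) and Rps15 of the small subunit's head (-0.54 ± 0.34, adjusted p = 0.75), did not pass.

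At day 4 the mLN and the lung were close. By limma 0 of the 64 genes differed, against 2.33% of all genes in either direction. At an unadjusted p under 0.05, 1 was lower (5.55% of all genes) and 0 higher (4.91%). The median difference of mLN against lung was -0.01, with 30 of 64 genes above 0 (52.3% of all genes). The gene past the unadjusted level was Rps27, at 6.00, 6.04 and 5.97 in the mLN and at 6.82, 6.77 and 6.84 in the lung (-0.81 ± 0.30, limma adjusted p = 0.281; 0.0335 with array weights). Every lung array lay above every mLN array. On the brighter probe set shared with other symbols the difference of Rps27 was 0.01. The other lowest difference was that of Rpl34 (-0.66 ± 0.34, adjusted p = 0.551), and the highest were those of Rpl26 (0.40 ± 0.26, adjusted p = 0.711) and Rpl39l (0.27 ± 0.19, adjusted p = 0.77), none of which passed.

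At week 2 the same comparison gave small differences on one side. By limma 0 of the 64 genes passed, against 0.78% of all genes in either direction, but 60 of 64 were higher in the mLN (48.6% of all genes), with a median of 0.23 against -0.01, and 16 were higher at an unadjusted p under 0.05 (5.04% of all genes) and 0 lower. For 31 genes every mLN array lay above every lung array (9.97% of all genes) and for 1 every array lay below (9.95%). Rps26 was at 11.19, 11.03 and 10.87 in the mLN and at 10.40, 10.31 and 10.38 in the lung. The groups did not overlap, by 0.67 ± 0.16 (95% interval 0.33 to 1.00, limma adjusted p = 0.0642; 0.00631 with array weights, and 0.0445 without lung day 4 replicate 3).

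Rps7 was at 6.13, 6.52 and 6.43 in the mLN and at 5.27, 5.91 and 5.71 in the lung, a difference of 0.73 ± 0.27 (limma adjusted p = 0.359). With array weights 4 genes were called higher in the mLN (1.7% of all genes): Rps26, Rpl37a, Rpl32 and Rpl27a, the last 3 named after their values were seen. The lowest differences were those of Rps15 (-0.32 ± 0.34, adjusted p = 0.852) and Rps16 (-0.32 ± 0.28, adjusted p = 0.807), whose groups overlapped. The difference of the macrophage markers was below 0 for 11 of 14. Without the 3 lung arrays highest in those markers the median was 0.24 and 59 of 64 genes were above 0.

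**Figure D3:**
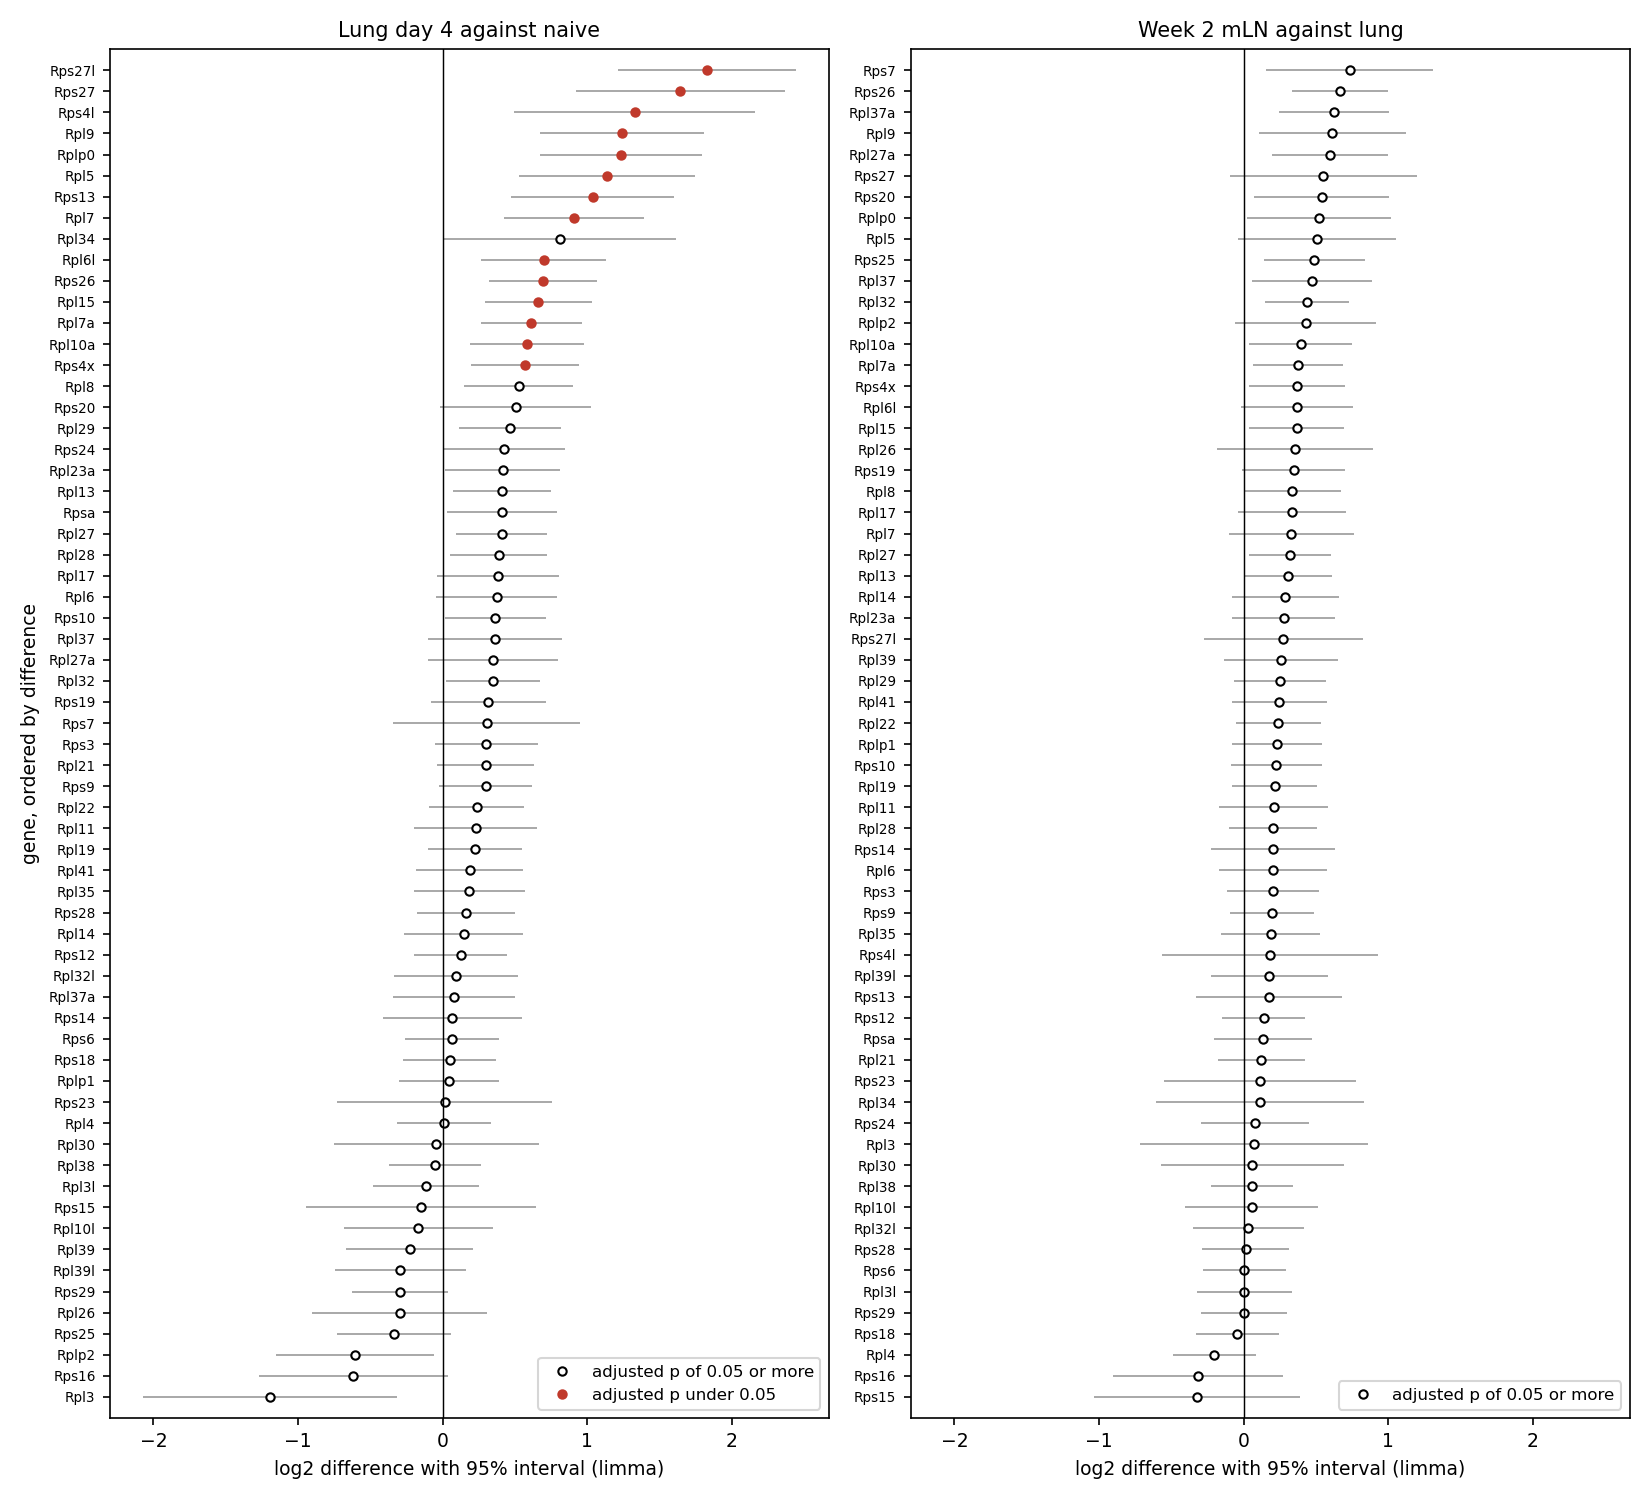
Log2 difference of each of the 64 genes with its 95% interval (limma), lung day 4 against naive (left) and mLN against lung at week 2 (right), each ordered by size; filled points passed an adjusted p of 0.05. On the left 51 of 64 lie above 0 and 14 are filled, and on the right 60 of 64 lie above 0 and none is filled.

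The difference between both tissues in the change from day 4 to week 2 was tested as an interaction. No gene of the 64 passed by limma (0 called, and 0.18% of all genes called). At an unadjusted p under 0.05, 7 were higher and 0 lower, against 3.29% and 3.09% of all genes. The difference was above 0 for 57 of 64 genes (48.7% of all genes), with a median of 0.26 against -0.01. The highest were Rps27 (1.36 ± 0.43, limma adjusted p = 0.374; 0.0305 with array weights) and Rplp0 (0.97 ± 0.33, adjusted p = 0.491), and the lowest Rps15 (-0.49 ± 0.48, adjusted p = 0.973) and Rpl4 (-0.23 ± 0.19, adjusted p = 0.961). Rplp0 was at 9.29, 9.31 and 8.46 in mLN at day 4 and at 8.45, 9.33 and 8.90 at week 2, so its mLN groups overlapped where its lung groups did not. On the brighter probe set shared with other symbols Rps27 differed by 0.06. Without the 3 lung arrays highest in macrophage markers the median of the interaction was 0.14.

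Paralogs and other relatives of core proteins, among them the annotated pseudogene Rps4l, were read beside the gene they resemble. Rps27l rose in the lung at day 4 and fell from day 4 to week 2. Rps27 rose at day 4 on the probe set used and differed by -0.06 on the brighter probe set shared with other symbols. Rps4l was higher at day 4 by 1.33 and Rps4x by 0.57. Rpl3l, Rpl10l and Rpl39l, which are known from muscle or testis, were not called in any comparison, and Rpl39l was at 4.73 in both 4-month arrays and at 5.04 to 5.82 elsewhere, with Rpl39 at 3.94 to 4.80 on all arrays. Rpl22l1, the paralog of Rpl22 outside the symbol rule, was at 3.30, 3.12 and 3.42 in lung at week 2 and at 4.23 and 3.92 at 4 months (0.79 ± 0.22, limma adjusted p = 0.0219; 0.0941 with array weights), where Rpl22 itself was at 5.56 to 5.80 and then at 5.83 in both arrays. Rpl7l1, the relative of Rpl7, was not called in any comparison, with 4.90 to 6.84 over all arrays.

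Probe sets that list several symbols gave other courses for some members. The probe set used for Rpl5 was at 4.497 and 3.30 in naive lung and at 5.13, 4.96 and 5.01 at day 4, while a brighter one, shared with a listed Rpl5 pseudogene, was at 9.90 in both naive arrays and at 7.85, 7.67 and 7.73 at day 4. On that probe set the signal fell by 2.15 ± 0.21 (limma, adjusted p = 1.015e-05), and it was 0.95 lower than naive at week 2. A probe set shared by Rplp2, the partner of Rplp1 in the stalk, and the snoRNA Snora52 was at 10.38 and 10.40 in naive lung and at 8.49, 8.48 and 9.51 at day 4. It fell by 1.56 ± 0.39 (limma, adjusted p = 0.0114), and the groups did not overlap.

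For Rps27 the shared probe set was at 12.13 on average and differed by -0.06 ± 0.15 at day 4 (limma, adjusted p = 0.833), where the probe set used rose by 1.64. Its rises above are those of 1 probe set near 6. For Rps16 the shared probe set differed by 0.13 ± 0.18 (limma, adjusted p = 0.642). Of the 24 members with more than 1 probe set of their own, 11 had at least 1 of opposite sign at day 4. Among the called genes these were Rpl7, Rpl7a and Rpl9. The opposing probe sets of Rpl7 and Rpl9 were dim (means of 3.99 and 3.80) and differed by -0.06 and -0.15. That of Rpl7a (mean 6.64) differed by -0.40, and its other bright probe set (mean 11.15) by 0.69. For Rpl3, 1 further probe set (mean 7.69) differed by 0.70 and another (mean 4.26) by -1.10.

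**Figure D4:**
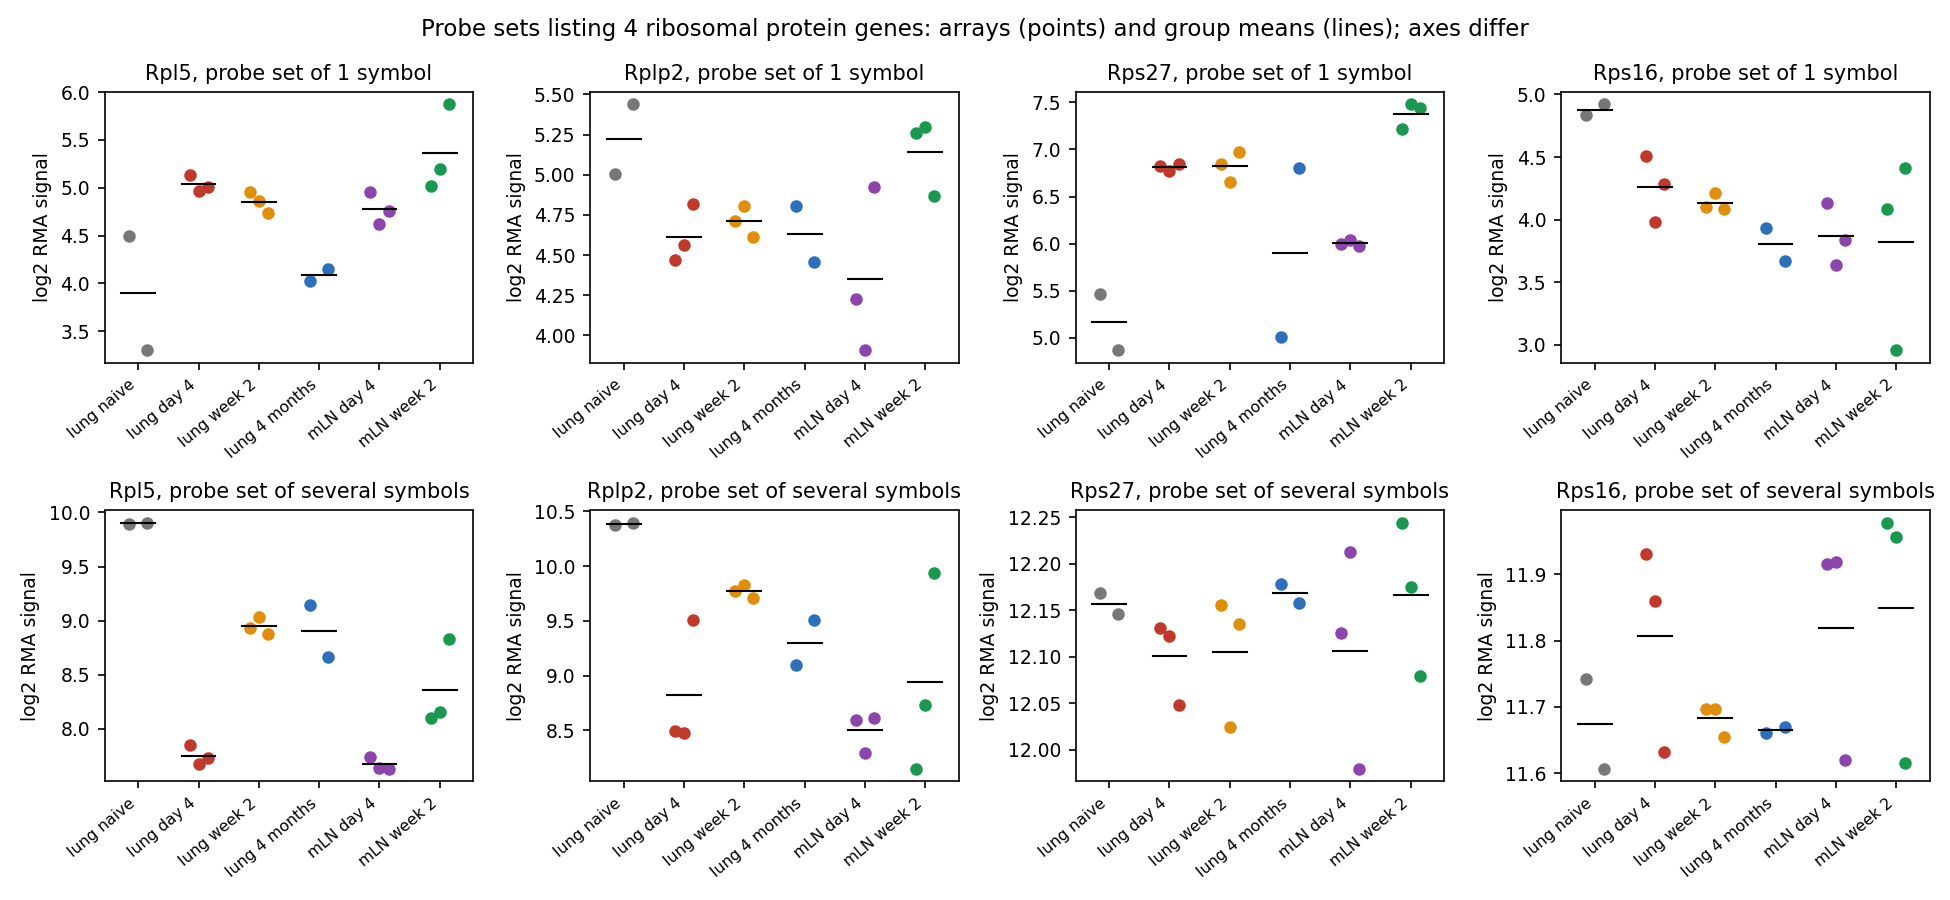
Log2 signal of Rpl5, Rplp2, Rps27 and Rps16 on the probe set of 1 symbol (top) and on the brighter probe set that lists several symbols (bottom), by array (points) and group (mean line); axes differ. The Rpl5 panels run in opposite directions between naive lung and day 4, and the shared Rps27 probe set spans under 0.3.

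The shared probe sets and genes described here and next were picked after their values were seen. Another 12 genes that meet the symbol rule were measured on probe sets of several symbols alone. At day 4 in the lung 1 of these differed by limma: a probe set shared by Rpl13a, a protein of the large subunit, and Snord32a, a snoRNA of its intron. It was at 11.93 and 12.04 in naive lung, at 9.18, 8.78 and 9.004 at day 4, at 11.06, 11.32 and 10.94 at week 2 and at 11.45 and 11.50 at 4 months. It fell by 2.99 ± 0.29 at day 4 (limma, adjusted p = 9.703e-06) and was 2.12 ± 0.26 higher at week 2 than at day 4 (adjusted p = 0.000267). In the mLN it was at 9.09, 8.91 and 8.34 at day 4 and at 10.11, 10.04 and 11.19 at week 2, a rise of 1.67 ± 0.26 (limma, adjusted p = 0.00132). The signal cannot be assigned to the mRNA or to the snoRNA. Rps2 lies at the mRNA entry of the small subunit. A probe set that lists it with other symbols was at 7.39 and 7.79 in naive lung and at 6.11 and 5.58 at 4 months, 1.74 ± 0.30 lower (limma, adjusted p = 0.00883). That signal cannot be assigned to Rps2 alone.

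Bright genes varied together. The median Pearson r between pairs of the 36 bright genes over the 16 arrays was 0.62, against 0.13 for pairs of the 28 dim genes. After the group means were taken out these were 0.34 and 0.03. These points share array, scaling and group. The r with the mean of the other bright genes was above 0.5 for 30 of the 36 and below 0 for 2, Rpl3 (-0.64) and Rpl4 (-0.58), which are named here after their values were seen.

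Other parts of the translation machinery, from lists of 43 translation factors, 66 ribosome assembly genes, 71 mitochondrial ribosomal proteins and 16 genes around mTOR, were set beside the family. At day 4 against naive lung (limma, 16.6% of all genes called in either direction), 18 of 38 measured translation factors were higher and 1 lower, 15 of 63 assembly genes higher and 1 lower, 17 of 71 mitochondrial ribosomal proteins higher and 0 lower, and 3 of 15 mTOR genes higher. Their medians were 0.61, 0.32, 0.56 and 0.25. With array weights 14, 9, 9 and 2 were called higher (5.91% of all genes). The subunit Eif3m of initiation factor 3 rose by 1.42 ± 0.23 (limma, adjusted p = 0.00057), the cap-binding factor Eif4e by 1.38 ± 0.22 (adjusted p = 0.000678) and the release factor Etf1 by 1.18 ± 0.18 (adjusted p = 0.000344). Brix1 (1.39), Nhp2 (1.24) and Utp4 (1.23) led the assembly genes and Mrpl54 (1.71), Mrpl18 (1.42) and Mrpl36 (1.31) the mitochondrial ribosome.

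From week 2 to 4 months in the lung, 22 of 38 translation factors, 31 of 63 assembly genes, 17 of 71 mitochondrial ribosomal proteins and 7 of 15 mTOR genes fell and 0 rose (limma, 11.5% of all genes called lower), with medians of -0.69, -0.65, -0.56 and -0.53, beside 2 of 64 and -0.20 for the cytosolic family. With array weights 12, 17, 4 and 2 of them were called lower (4.33% of all genes), and 0 of the 64. The mTOR activator Rheb fell by 1.30 ± 0.23 (limma, adjusted p = 0.00229), Eif3m by 1.27 ± 0.23 (adjusted p = 0.00259) and the assembly factor Rcl1 by 1.38 ± 0.19 (adjusted p = 0.000573). From day 4 to week 2 in the lung, 2 of 63 assembly genes were called higher and 1 lower (limma, 0.419% and 1.39% of all genes). The transcription factor Myc, which drives ribosome assembly genes, rose by 0.78 ± 0.18 (limma, adjusted p = 0.0341). Myc was at 7.58 and 7.62 in naive lung, at 7.11, 7.19 and 7.09 at day 4 and at 7.83, 8.08 and 7.81 at week 2. Nop56 rose by 0.68 ± 0.16 (adjusted p = 0.0343). Taf1d, a part of the RNA polymerase I factor SL1 and a snoRNA host, fell by 1.25 ± 0.17 (adjusted p = 0.000767). Between tissues, the mTOR inhibitor Deptor was higher in the mLN by 3.32 ± 0.29 at day 4 and by 4.44 ± 0.29 at week 2 (limma, adjusted p = 5.72e-06 and 3.85e-07). At week 2 the mitochondrial ribosomal proteins had a median of 0.38 for mLN against lung, with 0 of 71 called.

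**Figure D5:**
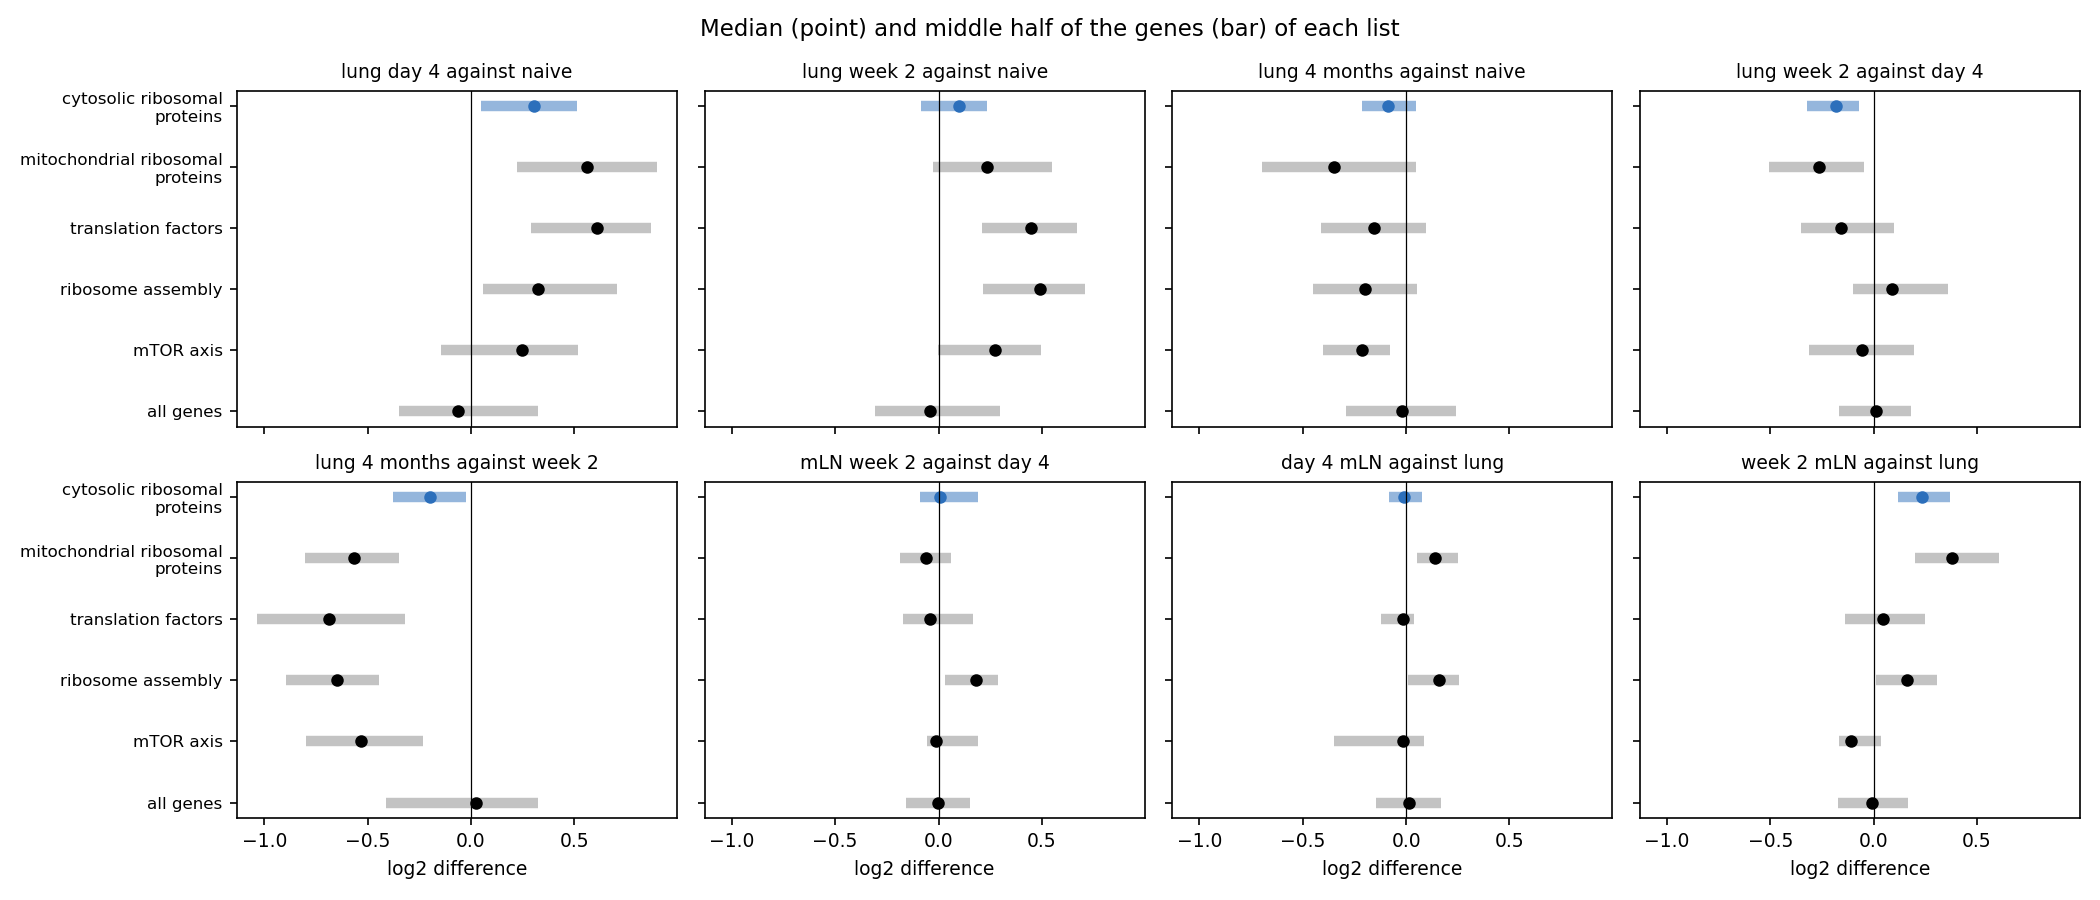
Median (point) and quartiles (bar) of the log2 differences of the 64 cytosolic ribosomal protein genes, of 4 other lists and of all 22180 genes, in 8 comparisons. The cytosolic family lies at 0.30 at day 4 against naive lung and at -0.20 from week 2 to 4 months, where the translation factors lie at 0.61 and -0.69.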

How the data were processed

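RNA was isolated by Trizol and given biotin labels by a Nugen Encore kit, per the labels' protocols. The deposited values are log2 signals; the submitters' processing notes name RMA and Affymetrix Expression Console as the authors' tools, and versions and genome build were not given in the sources used here. Array number, not read depth, limits the precision.

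Probe sets were named from the platform's annotation: 23521 of 41345 list 1 symbol, 1814 several and 16010 none. The brightest 1-symbol probe set stood for a gene, giving 22180 genes. Differences were fitted with limma 3.58.1 (R 4.3.3), 1 mean per group over all 16 arrays, with Benjamini-Hochberg adjustment over all genes and a call at an adjusted p under 0.05. The fit was run on simulated data with known changes, where the direction of the larger changes was checked. The rate of false calls under unequal spread is not given here. The p-values measure the spread between replicates under 1 common spread for all groups; array weights, an alternative, relax this.

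Named in each comparison were up to 5 called genes each way with the largest change, or, where none was called, the 2 largest differences that way; also the paralogs, and the genes highest and lowest in mean and SD. Up to 3 called genes came from each other list. The split at a mean of 8 was set after the values were seen. The members, the lists and the comparisons were chosen with earlier results of these data known. Marker lists held 13 measured ILC2, 14 macrophage, 11 T cell and 9 B cell genes; the ILC2 list had 4 genes higher and 1 lower at day 4 against naive lung and the B cell list 0 and 1.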

Additional observations from a re-analysis of the deposited data

How the results depend on the processing

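Counts of called ribosomal protein genes moved with the settings, as did the share of all genes called. At day 4 against naive, 9.38% of the family were higher with the groups compared alone, beside 4.87% of all genes. At week 2 against naive, 6.25% were higher with the replicate block, beside 6.05%. In lung week 2 against day 4, 9.38% were lower with array weights, beside 4.08%. At 4 months against week 2, 14.1% were lower with medians centred, beside 16.3%. Lung day 4 against naive gave 14 calls and 6 with quantile normalization repeated, 5 with array weights and 6 with the groups compared alone. Week 2 against naive gave 2 calls and 1 with array weights, 1 with the groups compared alone and 4 with the replicate block. It gave, reversed, 1 lower with the brightest probe set of any number of symbols. At 4 months against naive 0 calls became 2 with quantile normalization repeated (2.11% of all genes called lower). They became 1 with probe sets of several symbols added (1.25%) and 1 with the brightest probe set. Lung week 2 against day 4 gave 3 calls and 7 with array weights. At 4 months against week 2, 2 lower calls became 9 with medians centred, 5 with trend and robust settings and 0 with array weights. They became, reversed, 2 higher with quantile normalization repeated. In the mLN, week 2 against day 4 gave 1 call, 2 with array weights and 2 with the replicate block. It gave 2 with probe sets of several symbols added and 0 with the brightest probe set. At day 4, mLN against lung went from 0 to 1 with array weights (2.46% of all genes called lower). It was 1 with the groups compared alone (1.05%) and 1 without the naive and 4-month arrays. At week 2, mLN against lung went from 0 to 1 with medians centred (0.442% of all genes called higher). It was 1 with dim genes left out (0.634%), 2 with trend and robust settings (0.401%) and 4 with array weights (1.7%). With the mean of probe sets it was 1 (0.343%), and 2 without the naive and 4-month arrays. The interaction went from 0 to 1 with array weights (0.518% of all genes called higher). It was 1 with the groups compared alone (0.248%) and 1 without the naive and 4-month arrays.

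Leaving out 1 array, the median difference of the family ran from 0.25 to 0.35 for day 4 against naive. It ran from 0.07 to 0.12 for week 2 and from -0.17 to -0.07 for 4 months against naive. The range was -0.23 to -0.15 for lung week 2 against day 4 and -0.22 to -0.16 for 4 months against week 2. For mLN week 2 against day 4 it was -0.03 to 0.10. For mLN against lung it was -0.05 to 0.04 at day 4 and 0.21 to 0.30 at week 2, and for the interaction 0.20 to 0.34. With the brightest probe set the change of Rps27 became -0.0567 at day 4 and -0.0519 at week 2 against naive and 0.0056 for mLN against lung at day 4; that of Rpl5 became -0.95 and that of Rps16 0.0081 at week 2 against naive; that of Rps16 became 0.13 at day 4 against naive and 0.17 for mLN against lung at week 2; and that of Rpl26 became -0.11 for mLN against lung at day 4. Without 4-month replicate 2 the change of Rps27 at 4 months was -0.16 (without 1 array, up to 1.63), and without mLN week 2 replicate 2 that of Rps16 between tissues at week 2 was 0.11 (without 1 array, down to -0.61). The cause of these changes was not tested. Whether replicate numbers pair the samples was judged over all genes, where correlations of same-numbered arrays' deviations ran from -0.10 to 0.18. No comparison of 3 pairs was over 0.1 in all, and the numbers were used as numbers alone in the main fit. With deviations from means of 2 or 3 arrays this rule cannot exclude a pairing. Over the 64 genes, lung and mLN at day 4 gave 0.14, 0.24 and 0.48, all over 0.1. The replicate block gave 16 calls for day 4 against naive (15 higher and Rpl3 lower) and 4 for lung week 2 against day 4 (1 higher, 3 lower), 3 for 4 months against week 2, and 0 for 4 months against naive, both mLN against lung comparisons and the interaction. The alternatives that leave out several arrays and with the brightest probe set were chosen after seeing the data.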
